A study of Mus musculus with 30 samples.

Results

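LKS-SLAM cells are a rare fraction of mouse bone marrow that lacks lineage markers, carries Kit and Sca1, and is sorted further by the SLAM receptors, with CD150 present and CD48 absent. The comparison described here sets endothelium-derived LKS-SLAM cells against native ones in 3 libraries each, which are 6 of the 30 libraries of the series. It covers the 12858 of 23060 gene symbols that reached 1 FPKM or more in at least 2 of those 6 libraries. FPKM are fragments scaled by transcript length and by the mapped fragments of the library. They put levels on a shared scale across libraries and, per length, across genes. That scaling does not adjust for differences in RNA composition between libraries.

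The series concerns the conversion of adult mouse endothelium into transplantable blood stem cells that can rebuild the immune system, with a set of factors abbreviated FGRS (Fosb, Gfi1, Runx1, Spi1). All 6 libraries came from marrow cells sorted by flow cytometry and not cultured afterwards, and the total RNA was poly-A selected. The other libraries hold blood myeloid cells, B cells and CD4 and CD8 T cells of both origins, and cultured FGRS cells.

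The 3 control libraries have the genotype wild type and the 3 rEC libraries, named by the abbreviation in their titles, have the genotype derived. Control 1, control 2, rEC 2 and rEC 3 are labelled hematopoietic stem cell, and control 3 and rEC 1 long-term hematopoietic stem cell. The title of rEC 2 adds 47G1 Primary, that of rEC 3 adds Secondary, and that of rEC 1 names no recipient. Strain, age, sex, the number of animals behind a library and the transgenes that the derived cells carry are not given in the sources used here. The replicates may thus differ by transplant, and the p-values below measure the spread between libraries, which need not be the spread between animals.

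Hematopoietic stem cells divide rarely, renew themselves and give rise to every blood lineage. The Kit receptor and transcription factors such as Hlf, Meis1 and Mecom help to hold the stem cell state. As cells leave that state they switch on the genes of a lineage, such as the azurophil granule proteases of neutrophil precursors or Klf1 and Gata1 in the red cell lineage. In bulk libraries such as these, fewer cells of a type and less RNA of that type per cell cannot be told apart.

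The 6 libraries were not equally alike. Distance was taken as 1 minus Pearson's r over the 12858 genes on log2(FPKM + 1). Control 1 and control 2 were the nearest pair, at 0.0166. Control 3 stood at 0.0618 and 0.0595 from them. The next nearest pair crossed the origins. It was rEC 1 and control 3, at 0.0451, the 2 libraries that share the label long-term hematopoietic stem cell. The library rEC 1 was thus nearer to control 3 than control 3 was to the other controls. Its distance to rEC 3 was 0.0553, and rEC 3 was 0.0948 to 0.107 from the controls. rEC 2 stood apart, at 0.137 to 0.255 from every other library, and was farthest from rEC 3. The mean distance was 0.0460 ± 0.0255 (SD over 3 pairs) within the controls, 0.170 ± 0.103 (3 pairs) within the rEC libraries and 0.104 ± 0.0438 (9 pairs) between origins. Without rEC 2 the single remaining rEC pair was at 0.0553 and the mean between origins was 0.0791.

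**Figure D1:**
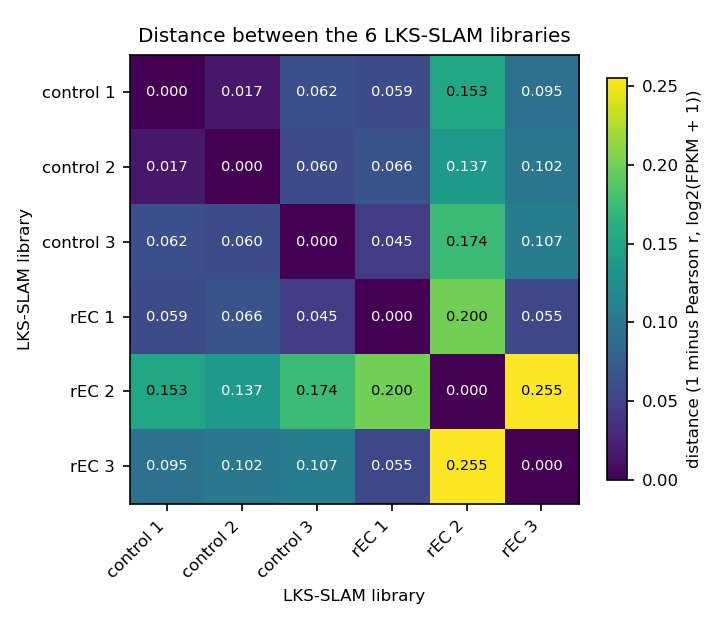
Distance between the 6 LKS-SLAM libraries, as 1 minus Pearson's r of log2(FPKM + 1) over 12858 genes, with libraries on both axes and the value in each cell. Control 1 and control 2 are the nearest pair at 0.0166, rEC 1 and control 3 follow at 0.0451, and the cells of rEC 2 are the palest, from 0.137 to 0.255.

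Between 11065 genes (rEC 2) and 12550 genes (control 1) reached 1 FPKM in a library. FPKM carry no counts, so absolute depth is unknown. Relative depth, estimated from the step between low values, ranged from 0.599 (control 3) to 1.07 (control 2) of that of control 1. Of the 12858 genes, 1956 were lower in rEC 2 than in any other of the 6 libraries by over 1 on the log2 scale and 826 were higher by that margin. The same counts were 110 and 167 in rEC 3, 9 and 5 in rEC 1, 31 and 69 in control 3, and 14 or fewer in control 1 and control 2. Counts of calls are therefore also given without rEC 2 where they differ.

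Sex-linked transcripts also split the libraries, in part by origin, with control 3 on the side of the rEC libraries. Xist, the X chromosome's silencing RNA, measured 0.112, 0.178 and 118 FPKM in controls 1, 2 and 3 and 131, 71.0 and 157 FPKM in rEC 1, 2 and 3. The Y-linked gene Ddx3y measured 31.3, 28.4 and 0.138 FPKM in the controls and 0, 0.906 and 0.0386 FPKM in the rEC libraries. Eif2s3y, another Y-linked gene, measured 43.0, 56.8 and 0 FPKM against 0, 3.61 and 0 FPKM. Control 1 and control 2 thus had Y-linked transcripts and almost no Xist, the other 4 libraries had the reverse, and rEC 2 held some of both. Xist passed the origin test (log2 difference 4.41 ± 1.01, SE, limma with Benjamini-Hochberg adjusted p = 0.028), though control 3 lay inside the rEC range and the call ended without control 1 (0.20), control 2 (0.19) or rEC 3 (0.054). The part of this split in the results below was not tested. The comparison of rEC 1 with control 3 does not cross it.

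The label of the sort was checked against its markers. Kit measured 125, 116 and 133 FPKM in the controls and 155, 63.5 and 109 FPKM in the rEC libraries. Ly6a, which encodes Sca1, measured 90.8, 65.0 and 108 FPKM against 153, 6.99 and 184 FPKM. Slamf1, which encodes CD150, measured 16.1, 15.6 and 9.34 FPKM against 21.1, 2.46 and 47.7 FPKM. The positive markers were thus at or above the control level in rEC 1 and near or above it in rEC 3, and below every control in rEC 2. Cd48, the marker that the sort leaves out, measured 19, 16.5 and 48.5 FPKM against 15.9, 28.2 and 0.227 FPKM, so rEC 3 was nearly free of it and the controls were not. Flt3, a receptor that long-term stem cells lack and multipotent progenitors carry, measured 19.9, 23.5 and 122 FPKM against 77, 7.21 and 14 FPKM. Cd34, which rises at the same step, measured 71.1, 61.8 and 222 FPKM against 191, 38.8 and 18.9 FPKM. Flt3 and Cd34 were highest in control 3 and rEC 1, the 2 libraries labelled long-term.

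Without rEC 2, Ly6a rose by 0.96 on the log2 scale (limma with Benjamini-Hochberg adjusted p = 0.019), Slamf1 rose by 1.20 (adjusted p = 0.029) and Cd48 fell by 2.51 (adjusted p = 0.011). With rEC 2 none of them passed, and their differences were -0.51, 0.11 and -1.61. Of the 11 sort markers, the lineage marker Itgam, which encodes Cd11b, was the only 1 that passed with all 6 libraries. It measured 12.7, 11.5 and 11.2 FPKM in the controls and 4.22, 0.381 and 1.01 FPKM in the rEC libraries. Every rEC library lay under every control, and Itgam fell by 2.39 ± 0.44 (SE, adjusted p = 0.0050). The T cell markers Cd3e, Cd4 and Cd8a were at 6.98 FPKM or less in all 6 libraries and did not pass.

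The 4 conversion factors were measured next. Fosb measured 632, 673 and 566 FPKM in the controls and 242, 31.1 and 366 FPKM in the rEC libraries. All 3 rEC values were under the controls, and the difference of -2.13 ± 0.83 (SE) did not pass (limma with Benjamini-Hochberg adjusted p = 0.34). Runx1, at 24.9, 23.8 and 37.5 FPKM against 39.1, 11.6 and 28.7 FPKM, and Spi1, at 76.4, 65.0 and 87.6 FPKM against 80.7, 20.4 and 58.4 FPKM, overlapped between origins. Gfi1 stood at 15.8, 13.3 and 18.7 FPKM against 10.5, 3.42 and 13.8 FPKM. None of the 4 passed, with or without rEC 2, and rEC 2 was the lowest library for each.

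Across genes, far more were lower in derived cells than higher. In a single limma model of log2(FPKM + 1) over the 29 grouped libraries of the series, 186 of 14083 genes tested passed an adjusted p of 0.05 (1.32%). Of these 10 were higher in rEC cells (0.071%) and 176 were lower (1.25%), 149 of them by 1 or more on the log2 scale. All 3 rEC libraries lay under all 3 controls for 148 of the 176, and above them for 9 of the 10. Over the 12858 genes, called or not, 541 (4.21%) lay wholly lower and 261 (2.03%) wholly higher. The median difference of all tested genes was -0.05.

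These counts rest on the spread pooled over 11 groups and on single libraries. Each SE in the text comes from the same pooled spread, not from the 6 LKS-SLAM libraries alone. With the 6 LKS-SLAM libraries alone limma called 0 genes, with 414 at an unadjusted p under 0.05. The pooled model had 1325 such genes, and LKS-SLAM and FGRS libraries together gave 3 calls. Leaving out 1 of the 6 libraries gave from 113 calls (without control 1) to 1258 (without rEC 2), and 80 of the 186 calls passed in all 6 of those fits. Quantile normalisation split its 202 calls into 88 higher and 114 lower, so the excess of lower genes depends on the scaling. Without rEC 2 there were 456 higher (3.24%) and 802 lower genes (5.69%), and 178 of the 186 were among them. List counts below are to be read beside these shares, and beside 1.25% lower and 0.071% higher with all 6 libraries.

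Many of the largest falls were in genes of the neutrophil line, and others were in genes of basophils, eosinophils and antibody-secreting cells. Retnlg, a resistin-like protein secreted by neutrophils (mm10, chr16:48872621-48874496), measured 156, 181 and 90.8 FPKM in the controls and 1.97, 0.135 and 0.105 FPKM in the rEC libraries. The groups were far apart, at 143 ± 46.7 against 0.737 ± 1.07 FPKM (mean ± SD, n = 3 each). Retnlg fell by 6.48 ± 0.47 on the log2 scale (SE, limma with Benjamini-Hochberg adjusted p = 4.5e-08). With the 6 LKS-SLAM libraries alone its adjusted p was 0.18, the lowest among the genes the naming rule gave, and the next were Adipoq and Ccr1 at 0.60.

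Of the 25 late neutrophil genes tested, 11 fell and 0 rose, beside 1.25% of all genes tested that fell. The median difference was -2.48 beside -0.05 over all genes. The list summed to 2286, 1775 and 2137 FPKM in the controls and 765, 134 and 268 FPKM in the rEC libraries, and Stfa2 and Stfa3 were at 0 in all 6. The alarmins S100a8 (chr3:90668978-90670035) and S100a9 (chr3:90692632-90695721) are neighbours whose products pair to form calprotectin. S100a8 measured 638, 475 and 615 FPKM in the controls and 177, 3.67 and 2.45 FPKM in the rEC libraries. S100a9 measured 536, 405 and 532 FPKM against 110.2, 3.72 and 1.59 FPKM. In rEC 1 both stayed above 100 FPKM, while in rEC 2 and rEC 3 they were under 4. S100a8 fell by 5.33 ± 1.16 (SE, adjusted p = 0.018) and S100a9 by 5.46 ± 1.19 (adjusted p = 0.019). Both calls ended without control 1 (adjusted p = 0.075 for each), without control 2 (0.052 and 0.053) and without rEC 3 (0.060 and 0.061).

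Contents of specific and gelatinase granules were lower as well. Lcn2, the siderophore-binding lipocalin, measured 52.3, 27.3 and 99.1 FPKM against 13, 0 and 0.197 FPKM and fell by 4.38 ± 0.76 (SE, limma adjusted p = 0.0029). The collagenase Mmp8, at 5.43, 7.11 and 11.3 FPKM against 1.54, 0.0489 and 0 FPKM, fell by 2.64 ± 0.35 (adjusted p = 0.00021). The gelatinase Mmp9 fell by 2.73 ± 0.38 (adjusted p = 0.00033). Hp, the haemoglobin scavenger haptoglobin, measured 61.8, 45.5 and 16.5 FPKM against 3.70, 0.962 and 0.598 FPKM and fell by 3.92 ± 0.51 (adjusted p = 0.00018). For each of these genes every rEC library lay under every control and rEC 1 was the highest of the 3. Other neutrophil genes did not pass. Lyz2, lysozyme, measured 212, 186 and 208 FPKM against 165, 79.6 and 125 FPKM (-0.77 ± 0.95, adjusted p = 0.86). Camp, a cathelicidin, overlapped between origins, at 112, 36.9 and 80.3 FPKM against 39.4, 0 and 0.752 FPKM, and its difference of -4.09 did not pass (adjusted p = 0.14).

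Earlier neutrophil precursors are marked by azurophil, or primary, granule genes. Of 15 of these 7 fell (median difference -2.49), beside 1.25% of all genes tested. The 15 genes summed to 2833, 2683 and 1147 FPKM in the controls and 579, 426 and 479 FPKM in the rEC libraries. Mpo, myeloperoxidase (chr11:87793581-87804413), measured 733, 687 and 176 FPKM in the controls and 20.5, 60.2 and 0.109 FPKM in the rEC libraries. Elane, neutrophil elastase (chr10:79886247-79888215), measured 497, 476 and 87.9 FPKM against 11.1, 48.5 and 1.01 FPKM. Ctsg, cathepsin G (chr14:56099881-56102574), measured 267, 270.5 and 52.5 FPKM against 8.60, 28.4 and 0 FPKM. All 3 had the same order of libraries: control 1 and control 2 near each other and highest, then control 3, rEC 2, rEC 1 and rEC 3. Mpo fell by 5.30 ± 0.82 (SE, limma with Benjamini-Hochberg adjusted p = 0.0012), Elane by 4.70 ± 0.74 (adjusted p = 0.0014) and Ctsg by 4.58 ± 0.73 (adjusted p = 0.0014). Between the libraries labelled long-term, rEC 1 was lower than control 3 by a log2 difference of -3.04 for Mpo, -2.88 for Elane and -2.48 for Ctsg.

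Prtn3, proteinase 3, is the neighbour of Elane on chromosome 10 and is loaded into the same granules, yet its values differed from those of Elane. It measured 649, 586 and 307 FPKM in the controls and 277, 48.7 and 353 FPKM in the rEC libraries. rEC 3, which held 1.01 FPKM of Elane and 0 FPKM of Ctsg, had more Prtn3 than control 3. The Prtn3 difference was -1.53 ± 0.52 (SE) and did not pass (limma adjusted p = 0.23). Stretches of 185 bases upstream of these 3 genes are shown because the genes share their granule and not their pattern. They come from RefSeq promoter windows on GRCm38.p6, cut to a shared length that enters no annotated exon, so that the Ctsg stretch ends short of the printed start. They are written 5′ to 3′ on the gene's strand: Elane at chr10:79886062-79886246 (plus strand), Prtn3 at chr10:79879417-79879601 (plus strand) and Ctsg at chr14:56102640-56102824 (minus strand). Capitals mark matches to GAGGAA, the purine-rich core of sites for the ETS factor Spi1, searched on both strands.
Elane: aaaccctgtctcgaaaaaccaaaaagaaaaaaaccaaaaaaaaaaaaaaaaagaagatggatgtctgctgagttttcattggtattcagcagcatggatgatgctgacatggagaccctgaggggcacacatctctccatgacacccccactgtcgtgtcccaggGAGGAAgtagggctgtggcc
Prtn3: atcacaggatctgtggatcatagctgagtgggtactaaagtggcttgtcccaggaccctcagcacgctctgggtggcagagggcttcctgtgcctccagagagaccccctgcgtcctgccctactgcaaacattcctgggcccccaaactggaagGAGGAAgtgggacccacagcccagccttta
Ctsg: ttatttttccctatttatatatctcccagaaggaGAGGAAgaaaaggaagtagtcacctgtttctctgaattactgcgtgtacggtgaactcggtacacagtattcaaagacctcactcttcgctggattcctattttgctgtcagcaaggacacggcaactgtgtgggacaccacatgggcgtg
Each window holds 1 match, and 17.6% of 32851 promoter windows of that length hold at least 1. The match is a feature of the letters, shared by the gene that did not pass, and does not show a bound site.

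Of other genes of this stage, Cebpe and Plac8 fell and Cebpa and Csf3r did not pass. Cebpe, the factor that turns on the specific granule genes, measured 14.9, 20.0 and 3.45 FPKM against 0.509, 0.636 and 0.124 FPKM and fell by 3.02 ± 0.44 (SE, limma adjusted p = 0.00062). Plac8, a small cysteine-rich protein, was high in all controls, at 325, 315 and 382 FPKM, and lower at 162, 55.5 and 50.2 FPKM in the rEC libraries (log2 difference -2.13 ± 0.36, adjusted p = 0.0026). Cebpa, which acts before Cebpe, measured 14, 11.9 and 17.8 FPKM against 11.3, 3.17 and 0.474 FPKM and did not pass (adjusted p = 0.058), though it did with the label as a term (0.013) and without rEC 2 (0.037). Csf3r, the receptor for granulocyte colony-stimulating factor, measured 40.0, 33.2 and 44.1 FPKM against 31.1, 3.82 and 22.6 FPKM (adjusted p = 0.14). Without rEC 2, 10 of the 15 primary granule genes and 12 of the 25 late neutrophil genes fell, beside 5.69% of all genes tested.

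**Figure D2:**
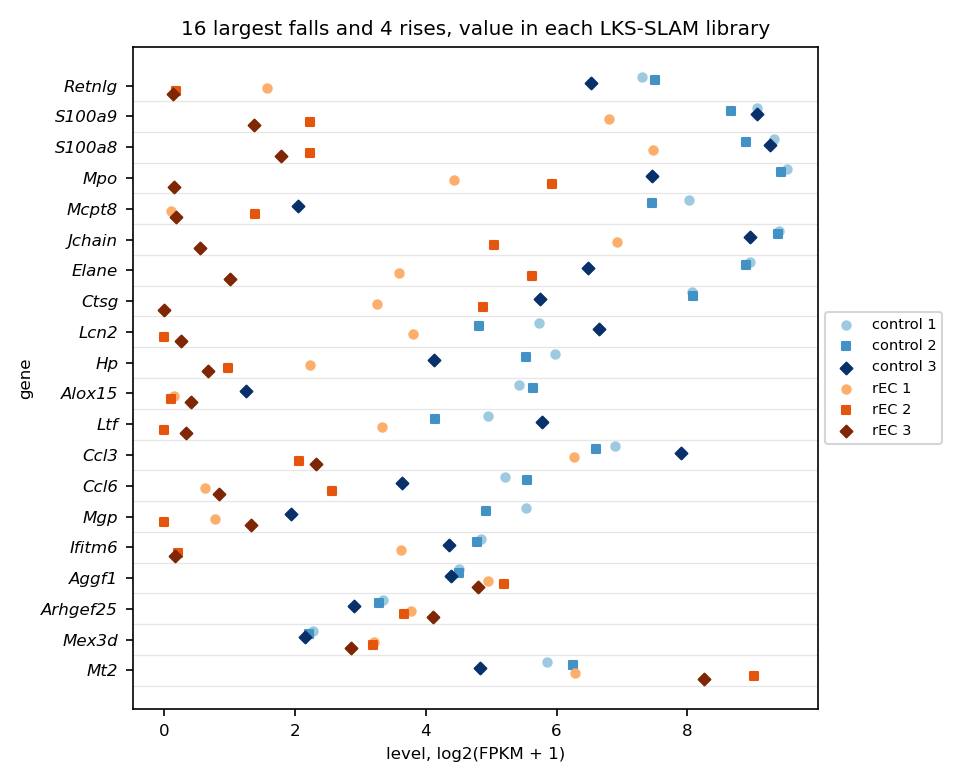
Level of 16 genes with the largest falls and 4 with the largest rises under the naming rule, as log2(FPKM + 1) on the horizontal axis, with 1 point per library, controls in blue and rEC libraries in orange and brown. Retnlg has the widest gap between the origins, and for S100a8, S100a9, Jchain and Ccl3 rEC 1 lies between the controls and the other rEC libraries.

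Genes of the other granulocytes split the controls as well as the origins. The 11 eosinophil genes summed to 2775, 5091 and 39.4 FPKM in the controls and 5.08, 413 and 2.32 FPKM in the rEC libraries, so control 3 was closer to the rEC libraries than to the other controls. Prg2, the major basic protein of eosinophil granules, carried most of it, at 1863, 3398 and 31.5 FPKM against 3.07, 311 and 0.873 FPKM. Its difference of -5.47 ± 1.45 (SE) did not pass (limma adjusted p = 0.064), and it passed with the cell type label as a term in the fit (0.012) and without rEC 2 (-7.74, adjusted p = 0.00030). Of 10 eosinophil genes tested, 4 fell (1.25% over all genes tested): Alox15, Ear1, Siglecf and Il5ra. Without rEC 2 all 10 tested fell, beside 5.69% of all genes tested. Alox15, an arachidonate lipoxygenase, measured 42.2, 49.0 and 1.38 FPKM against 0.109, 0.0747 and 0.329 FPKM and fell by 3.89 ± 0.66 (SE, limma adjusted p = 0.0026). Ear1, an eosinophil ribonuclease with near-identical copies among which reads could be divided, measured 223, 439 and 1.82 FPKM against 0, 8.25 and 0 FPKM, and its call (adjusted p = 0.021) ended without control 1 (0.15), control 2 (0.16), rEC 1 (0.056) or rEC 3 (0.055). The calls of Siglecf and Il5ra ended without either of these controls too (Siglecf 0.17 and 0.18, Il5ra 0.075 and 0.17), and in some fits without another library (Siglecf 0.067 without rEC 3, Il5ra 0.070 without control 3 and 0.087 without rEC 1).

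Mast cell and basophil genes gave the same split, with sums of 763, 571 and 36.8 FPKM in the controls and 24.4, 91.4 and 22 FPKM in the rEC libraries. Of 15 tested, 6 fell, and 9 without rEC 2, beside 1.25% and 5.69% of all genes tested. Mcpt8, the basophil protease (chr14:56082166-56085273), measured 258, 176 and 3.15 FPKM against 0.0749, 1.64 and 0.134 FPKM. Its groups did not overlap, and it fell by 5.28 ± 0.85 (SE of the pooled fit, limma adjusted p = 0.0015). With the LKS-SLAM libraries alone it did not pass. Hdc, which makes histamine, measured 16.3, 18.4 and 3.09 FPKM against 0.790, 1.13 and 0.0973 FPKM and fell by 2.79 ± 0.41 (adjusted p = 0.00062). Cd200r3, an activating receptor of basophils and mast cells, measured 6.53, 4.37 and 1.80 FPKM against 0, 0.0424 and 0 FPKM and fell by 2.25 ± 0.25 (adjusted p = 2.2e-05). Prss34 measured 363, 267 and 1.26 FPKM against 0.236, 1.41 and 0.211 FPKM. Its level in control 3 was within the rEC range, and its call (adjusted p = 0.0099) ended without control 1 or control 2 (0.082 each). Proteases of connective tissue mast cells were highest in rEC 2. Cma1 measured 0, 0 and 0 FPKM in the controls and 0.876, 14.6 and 0.0489 FPKM in the rEC libraries, and Mcpt4 was above 0 only in rEC 2, at 23.2 FPKM.

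Genes of antibody-secreting cells had lower sums in all derived libraries. Of 13, 5 fell (6 without rEC 2), beside 1.25% of all genes tested (5.69% without rEC 2). The list summed to 856, 822 and 697 FPKM in the controls and 227, 126 and 168 FPKM in the rEC libraries. Jchain, the joining chain of secreted antibodies (chr5:88519809-88527891), measured 676, 666 and 498 FPKM against 120.1, 32.1 and 0.473 FPKM and fell by 5.07 ± 1.02 (SE, limma adjusted p = 0.0099). Mzb1, a chaperone of antibody assembly, measured 17.4, 20.4 and 29.6 FPKM against 6.57, 2.80 and 0.303 FPKM and fell by 2.77 ± 0.59 (adjusted p = 0.015, and 0.054 without rEC 3). Derl3, Irf4 and Tnfrsf17 also fell. Each of these calls ended without control 3 (limma adjusted p = 0.080, 0.14 and 0.17) and without some other libraries. Only the Jchain call held in every fit that leaves out a library. Xbp1, the secretory factor of plasma cells with wider use, measured 71.4, 57.2 and 64.4 FPKM against 48.1, 19.9 and 135 FPKM and did not pass. B lineage genes were high in control 3 alone, with sums of 44.2, 49.8 and 209 FPKM in the controls and 52.4, 22.5 and 18.6 FPKM in the rEC libraries, and Vpreb3 was the only 1 of 14 that fell (adjusted p = 0.036, and 0.18 without control 3, 0.050 without rEC 1 or 0.068 without rEC 3). Of the 21 T and NK genes 0 passed in limma, and without rEC 2 Klrb1c, a receptor of NK cells, rose (adjusted p = 0.043). Ccl5, at 4.18, 9.33 and 108 FPKM against 23.2, 0 and 0.777 FPKM, was again highest in control 3.

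Genes of marrow stroma were present in 2 of the controls. The 16 stromal genes summed to 234, 403 and 26.1 FPKM in the controls and 18.2, 76.2 and 10.9 FPKM in the rEC libraries. Cxcl12, the chemokine that holds stem cells in the marrow, measured 132, 58.9 and 6.08 FPKM against 7.83, 3.06 and 1.54 FPKM. It fell by 3.09 ± 0.60 (SE, limma adjusted p = 0.0076, and 0.057 without control 1 or 0.052 without control 2), and control 3 lay within the rEC range. Adipoq, adiponectin of the marrow's fat and reticular cells, measured 6.69, 3.63 and 2.94 FPKM against 0.419, 0 and 0.124 FPKM and fell by 2.15 ± 0.19 (adjusted p = 1.6e-06). The defining markers Col1a1 and Bglap measured 6.65 and 5.49 FPKM in control 1 and 97.4 and 43.6 FPKM in control 2. Both were at 0 in control 3 and Bglap was at 0 in all rEC libraries. In all, 6 of 13 stromal genes tested fell, and 8 without rEC 2, beside 1.25% and 5.69% of all genes tested. The part of these stromal, eosinophil and basophil transcripts in the origin calls was not tested.

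No gene of the stem cell lists passed with all 6 libraries, and the 3 derived libraries took different places relative to the controls. Of 24 stem cell surface and enzyme genes, 20 were above all 3 controls in rEC 3, 14 in rEC 1 and 0 in rEC 2, where all 24 were below all 3 controls. Over all 12858 genes, 39.6% were above the controls in rEC 3, 24.8% in rEC 1 and 33.9% in rEC 2, and 49.2% were below them in rEC 2. With all 6 libraries limma called 0 of the 24 genes, and with rEC 2 left out it called 3 higher: Tek, Fgd5 and Neo1. The share of all genes tested called higher in that fit was 3.24%. Fgd5, a guanine exchange factor used to mark long-term stem cells, measured 18.2, 17 and 14 FPKM in the controls and 21.2, 0.0305 and 29.4 FPKM in the rEC libraries. Its difference was -0.97 ± 0.68 (SE, adjusted p = 0.75), and without rEC 2 it rose by 0.58 (adjusted p = 0.013). Neo1, neogenin, measured 5.73, 7.24 and 3.06 FPKM against 14.6, 0.202 and 39.2 FPKM, and without rEC 2 it rose by 2.04 (adjusted p = 4.8e-05). Procr, the protein C receptor on stem cells, measured 72.4, 76.5 and 77.8 FPKM against 116, 7.52 and 154 FPKM and did not pass in either fit (0.86 and 0.11).

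Sult1a1, a sulphotransferase, measured 243, 176 and 49.97 FPKM against 155, 3.76 and 552 FPKM and did not pass. Vwf, which marks platelet-biased stem cells, measured 50.5, 35.5 and 17.5 FPKM against 42.8, 8.91 and 82.4 FPKM. For Sult1a1 and Vwf rEC 3 was the highest library, rEC 2 the lowest, and control 3 the lowest control.

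Transcription factors of the stem cell state also set rEC 2 apart. Hlf measured 52.2, 49.3 and 61.4 FPKM in the controls and 102, 11 and 83.3 FPKM in the rEC libraries. Meis1 measured 90.9, 76.9 and 72.5 FPKM against 105.2, 18 and 113 FPKM, and Mecom 35.7, 33.0 and 23.6 FPKM against 47.2, 4.22 and 62.2 FPKM. In rEC 1 and rEC 3 all 3 genes were above every control, and in rEC 2 below every control. Of 19 such genes 13 were above the controls in rEC 1 and 13 in rEC 3, and 16 were below them in rEC 2. The matching shares of all genes were 24.8%, 39.6% and 49.2%. With all libraries 0 of 19 passed, and without rEC 2 Prdm16 rose by 0.60 (limma adjusted p = 0.030). Prdm16 measured 11.3, 9.88 and 6.81 FPKM against 13.5, 0.107 and 15.3 FPKM. Gfi1b, which stem cells share with the red cell and platelet lines, was the opposite, at 21.0, 21.7 and 8.99 FPKM against 15.8, 80.5 and 15.4 FPKM.

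Hox genes set the positional and self-renewal programme of blood stem cells, and 16 of 18 were above every control in rEC 3 and 11 of 18 in rEC 1, while 16 were below every control in rEC 2. The matching shares of all genes were 39.6%, 24.8% and 49.2%. Hoxb8 measured 4.36, 3.45 and 3.89 FPKM in the controls and 8.14, 0.0901 and 19.6 FPKM in the rEC libraries. Hoxb5, which marks long-term stem cells, measured 7.96, 6.70 and 5.12 FPKM against 10.2, 1.23 and 24.1 FPKM. Hoxb4 measured 10.8, 7.61 and 8.58 FPKM against 13.8, 2.70 and 31.3 FPKM. In each case rEC 3 was higher than any other library. With all 6 libraries 0 of 16 Hox genes tested passed, and without rEC 2, 7 rose: Hoxa2, Hoxb2, Hoxb4, Hoxb5, Hoxb6, Hoxb8 and Hoxb9. Of all genes tested 3.24% rose without rEC 2. Hoxb8 then rose by 1.49 (limma adjusted p = 3.5e-05), Hoxb6 by 1.33 (0.0027) and Hoxb5 by 1.16 (0.0017). Hoxa9, the Hox gene of highest level per length in the controls, measured 42.1, 43.0 and 41.9 FPKM against 44.1, 12.1 and 48.4 FPKM.

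**Figure D3:**
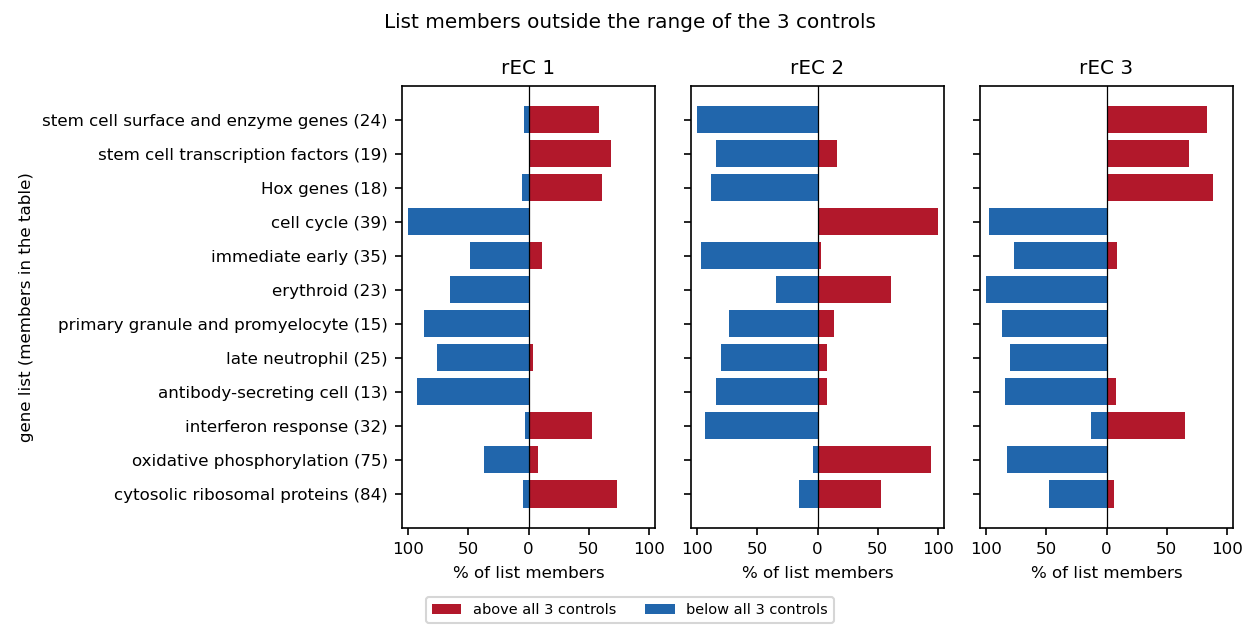
Share of the members of 12 gene lists that lay above all 3 controls (red, to the right) or below all 3 controls (blue, to the left) in each rEC library, in percent of the members in the table. The bars of rEC 2 point the opposite way to those of rEC 1 and rEC 3 for the stem cell, Hox and cell cycle lists, and the same way for the granule and antibody-secreting lists.

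Cell cycle genes split the derived libraries. All 39 were below every control in rEC 1, 38 were in rEC 3, and all 39 were above every control in rEC 2. Over all genes 29.9% were below every control in rEC 1 and 27.6% in rEC 3, and 33.9% were above every control in rEC 2. Their summed level was 1984, 2029 and 1243 FPKM in the controls and 805, 4526 and 507 FPKM in the rEC libraries. Mki67, the proliferation antigen, measured 40.3, 43.7 and 32.1 FPKM against 8.60, 85.0 and 7.65 FPKM. Ccne1, the cyclin of entry into DNA synthesis, measured 14.7, 19.1 and 9.65 FPKM against 2.03, 87.4 and 0.683 FPKM. Rrm2, a subunit of ribonucleotide reductase, measured 55.6, 68.7 and 42.5 FPKM against 11.1, 188 and 6.03 FPKM. With all 6 libraries limma called 0 of the 39 genes, with a median difference of -0.47. Without rEC 2 all 39 fell, beside 5.69% of all genes tested, with a median of -1.56 beside 0.01 over all genes. Ccne1 then fell by 2.73 (adjusted p = 2.8e-07), Rrm2 by 2.59 (1.2e-07) and Mki67 by 2.11 (4.0e-06). Mcm6, of the replication licensing complex, then fell by 0.97 (adjusted p = 0.010), at 128, 126 and 142 FPKM in the controls against 97.3 and 45.7 FPKM in rEC 1 and rEC 3.

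Genes that restrain division did not pass with all 6 libraries. Cdkn1c, the p57 inhibitor of quiescent stem cells, measured 22.2, 28.1 and 10.8 FPKM in the controls and 33.4, 0.841 and 41.0 FPKM in the rEC libraries. Cdkn1a, the p21 inhibitor, measured 118, 91.0 and 61.1 FPKM against 77.5, 1.26 and 41.3 FPKM. The imprinted long RNA Meg3 measured 43.6, 35.9 and 0.715 FPKM against 1.53, 0 and 7.42 FPKM, so it was high in control 1 and control 2 alone, and it passed with the label as a term (adjusted p = 0.048). Of the 17 genes of quiescence and imprinting tested 0 passed, and without rEC 2 the cyclin Ccnd1 rose by 0.80 (limma adjusted p = 0.037).

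Red cell genes of different stages were high in different libraries. Klf1, the master factor of the lineage, measured 15.1, 28.5 and 23.4 FPKM in the controls and 5.49, 201 and 1.06 FPKM in the rEC libraries. Gata1 measured 26.5, 25.2 and 10.5 FPKM against 4.84, 108 and 0.805 FPKM. Car1, a carbonic anhydrase of early red cells, measured 110.2, 284 and 39.9 FPKM against 15.2, 1914 and 1.81 FPKM. Genes of late red cells were highest in control 3. Hbb-b1, a beta globin with close copies, measured 200.1, 539.9 and 1235 FPKM against 486, 50.4 and 3.77 FPKM, and Slc4a1, the band 3 anion exchanger, measured 20.0, 22.8 and 161 FPKM against 23.7, 4.40 and 1.06 FPKM. rEC 2 thus held the factors and enzymes of early red cells, control 3 the globin and membrane genes of late ones, and rEC 3 was below every control for all 23 genes in the table. Over all genes 27.6% were below every control in rEC 3. Slc4a1 was the only 1 of 23 to pass with all libraries (limma adjusted p = 0.031), and its call ended without control 3 (0.14) or rEC 3 (0.084). Without rEC 2, 16 of 23 fell, beside 5.69% of all genes tested. Car1 fell by 4.01 (adjusted p = 8.0e-05) and Gata1 fell by 2.64 (0.00013).

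Of 18 megakaryocyte and platelet genes tested, 1 fell, and 3 without rEC 2. The 1 was Thbs1, thrombospondin 1 (18.7, 12 and 8.12 FPKM against 1.05, 1.80 and 2.31 FPKM, limma adjusted p = 0.0061, and 0.053 without control 1). Pf4, platelet factor 4, measured 249.98, 202 and 19.1 FPKM against 37.8, 456 and 21.2 FPKM. Selp, P-selectin, measured 41.1, 26.8 and 42.9 FPKM against 52.7, 5.14 and 142 FPKM. Dntt, a lymphoid progenitor gene that adds bases at rearranging antigen receptor genes, was highest in the 2 libraries labelled long-term. It measured 1.71, 1.79 and 96.2 FPKM in the controls and 46.2, 4.65 and 0.0458 FPKM in the rEC libraries. Of 13 such genes tested, 1 fell, and 2 without rEC 2.

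Monocyte, macrophage and dendritic genes gave 1 call in 21, the clotting factor subunit F13a1 (20.4, 14.8 and 3.72 FPKM against 1.60, 0.181 and 0.361 FPKM, limma adjusted p = 0.0056, and 0.053 without control 1). Without rEC 2, 3 of the 21 fell. In rEC 2 itself 12 of the 21 were below every control and 7 above, beside 49.2% and 33.9% of all genes. The complement genes C1qa, C1qb and C1qc, made by tissue macrophages, were high in rEC 2 alone, at 80.5, 82.9 and 83.6 FPKM, and at 3.83 FPKM or less in the other 5 libraries. Together with Vcam1 (69.5 FPKM in rEC 2 and 16.2 FPKM or less elsewhere) they stand beside the early red cell genes of that library, and their part in its distance from the others was not tested. Cd74, the invariant chain of class II complexes, measured 187, 149.7 and 545 FPKM against 607, 71.7 and 241 FPKM and did not pass.

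Immediate early genes, which are transcribed within minutes of a stimulus and also of handling, were very low in rEC 2. Of 35, 34 were below every control there, beside 49.2% of all genes, and the list summed to 16937, 18057 and 15953 FPKM in the controls and 13555, 910 and 12081 FPKM in the rEC libraries. Fos measured 2059, 2443 and 2256 FPKM against 1364, 57.7 and 1525 FPKM. Egr1 measured 1505, 1334 and 1066 FPKM against 1224, 34.5 and 1002 FPKM, and Socs3 measured 126, 114 and 96.0 FPKM against 112, 0.546 and 233 FPKM. The list's median difference was -1.83 with rEC 2 (4 calls, all lower) and -0.48 without it (3 lower). The shares of all genes tested called lower were 1.25% with rEC 2 and 5.69% without it. Cd69, an activation antigen, measured 53.4, 55.2 and 87.8 FPKM against 37.9, 5.31 and 3.77 FPKM and fell by 2.62 ± 0.48 (SE, limma adjusted p = 0.0048). Tnfaip3, the NF-kB inhibitor A20, fell by 1.93 ± 0.39 (adjusted p = 0.012), at 48.6, 34.3 and 63.2 FPKM against 30.8, 3.83 and 12.3 FPKM. Both calls held in all 6 fits that leave out a library. The calls of Egr2 and Egr3 ended without control 1 (0.10 and 0.24) or control 2 (0.090 and 0.19), and that of Egr3 without rEC 2 (0.071).

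**Figure D4:**
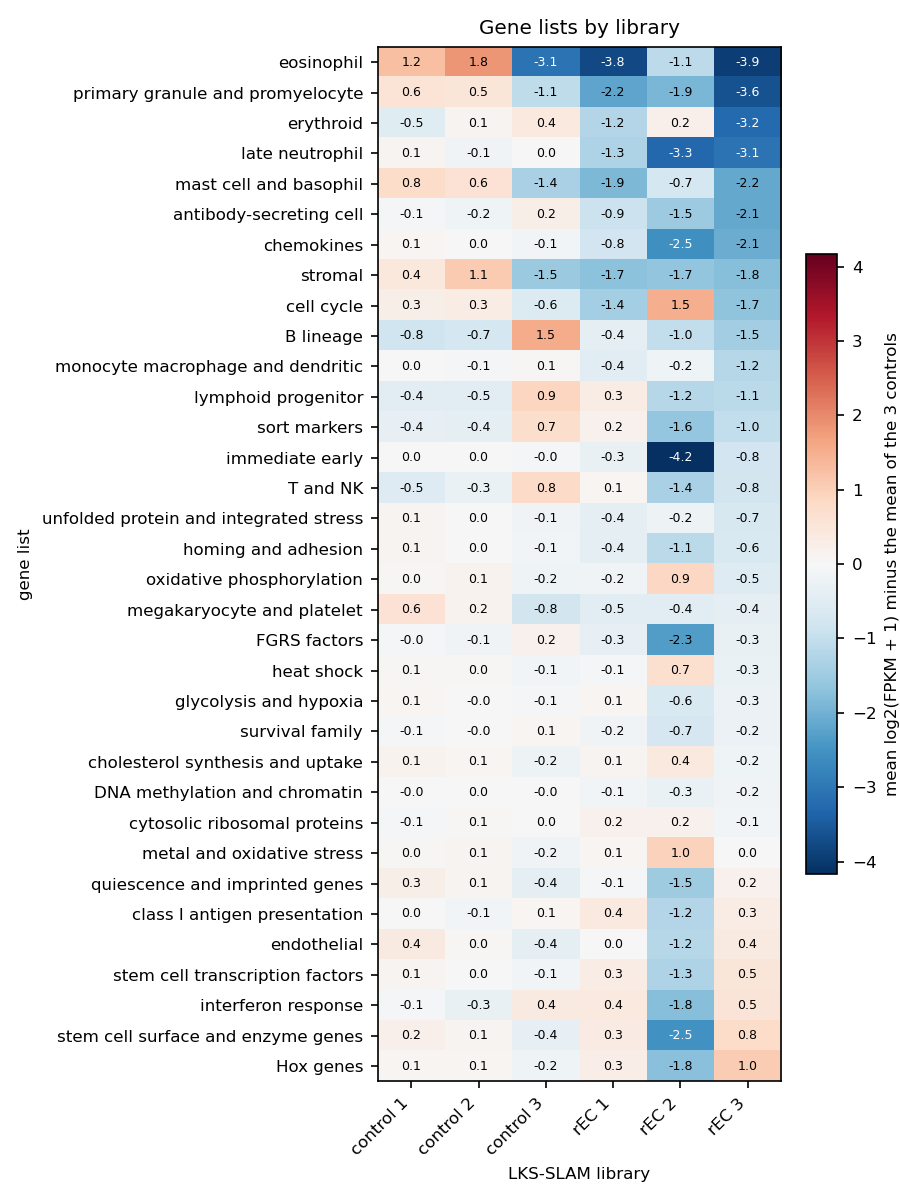
Mean log2(FPKM + 1) of each of 34 gene lists in each library, minus the mean of the 3 controls, with blue for lower and red for higher. In the eosinophil row control 3 is near rEC 1 and rEC 3, the immediate early and stem cell rows single out rEC 2, and the primary granule and antibody-secreting rows are blue in all 3 rEC libraries.

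The metallothionein pair, small proteins that bind zinc and copper, was higher in derived cells. Mt2 (chr8:94172664-94173568) measured 57, 75.4 and 27.5 FPKM in the controls and 76.5, 515 and 305 FPKM in the rEC libraries. Its neighbour Mt1 (chr8:94179082-94180327) measured 146, 195 and 79.5 FPKM against 217, 714 and 506 FPKM. For both genes every rEC library was above every control, though rEC 1 exceeded control 2 by little. Mt2 rose by 2.199 ± 0.52 (SE, limma with Benjamini-Hochberg adjusted p = 0.031). Mt1 had a difference of 1.70 ± 0.48 and did not pass (adjusted p = 0.092), though it did with the label as a term (0.030). The Mt2 call ended without control 1 (0.076), control 3 (0.13), rEC 2 (0.050) or rEC 3 (0.065). Of the other 16 genes of metal and oxidative stress none passed with all libraries (without rEC 2 the list had 1 rise and 1 fall), and the zinc exporter Slc30a1 measured 3.15, 2.44 and 3.21 FPKM against 4.46, 3.18 and 7.33 FPKM. Stretches of 243 bases upstream of these genes on GRCm38.p6 (from RefSeq windows, plus strand) are shown because both genes were above every control in all rEC libraries. The Mt1 stretch ends at the printed start and the Mt2 stretch short of it: Mt1 at chr8:94178839-94179081 and Mt2 at chr8:94172368-94172610. Capitals mark matches to TGCACNC or TGCGCNC, the core of metal response elements, searched on both strands.
Mt1: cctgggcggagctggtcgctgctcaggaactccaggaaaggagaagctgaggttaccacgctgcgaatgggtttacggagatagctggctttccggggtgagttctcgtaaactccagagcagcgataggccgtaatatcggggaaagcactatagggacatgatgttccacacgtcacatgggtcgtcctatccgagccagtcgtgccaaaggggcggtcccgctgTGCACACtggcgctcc
Mt2: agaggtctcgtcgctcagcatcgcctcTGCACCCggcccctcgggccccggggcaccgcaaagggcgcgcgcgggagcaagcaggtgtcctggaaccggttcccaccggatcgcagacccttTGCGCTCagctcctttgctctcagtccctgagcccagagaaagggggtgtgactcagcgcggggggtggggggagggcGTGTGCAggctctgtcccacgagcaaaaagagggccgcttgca
The Mt2 window holds 3 matches and the Mt1 window 1. Among 32851 promoter windows of that length 20.7% hold at least 1 and 1.19% hold 3 or more. This describes the letters of these stretches, not the whole promoters and not the binding of a factor.

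Other rises were those of Mex3d, Arhgef25 and Aggf1. Mex3d, an RNA-binding protein (chr10:80380355-80387659), measured 3.83, 3.63 and 3.45 FPKM in the controls and 8.30, 8.18 and 6.24 FPKM in the rEC libraries. It rose by 0.88 ± 0.18 (SE, limma adjusted p = 0.013) and passed without any 1 of the 6 libraries. Arhgef25, a guanine nucleotide exchange factor, measured 9.20, 8.80 and 6.52 FPKM against 12.6, 11.7 and 16.2 FPKM and rose by 0.66 ± 0.15 (adjusted p = 0.024, and 0.078 without control 3 or 0.060 without rEC 3). Aggf1, an angiogenic factor, measured 21.8, 21.8 and 19.9 FPKM against 30.1, 35.7 and 26.9 FPKM and rose by 0.52 ± 0.12 (adjusted p = 0.031, and 0.078 or 0.079 without any 1 control).

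Signalling and trafficking genes gave a few falls, beside 1.25% of all genes tested. Cxcr4, the receptor for Cxcl12, measured 94.1, 112 and 69.5 FPKM in the controls and 52.0, 12.8 and 36.8 FPKM in the rEC libraries. It fell by 1.59 ± 0.38 (SE, limma adjusted p = 0.032, and 0.12 without control 1, 0.15 without control 2 or 0.051 without rEC 2). Ccr1, a receptor for Ccl3, measured 3.64, 3.72 and 1.55 FPKM against 0.0735, 0.0628 and 0.0976 FPKM and fell by 1.83 ± 0.32 (adjusted p = 0.0029). Ccl3 itself measured 118, 95.8 and 238 FPKM against 75.7, 3.17 and 3.99 FPKM and fell by 3.58 ± 0.72 (adjusted p = 0.0099). Receptor and ligand thus both fell, and both calls held without any 1 library. In all 4 of 20 homing and adhesion genes fell, among them Itgal, an integrin of leukocytes (10.5, 11.2 and 18.9 FPKM against 8.62, 2.33 and 0.613 FPKM, adjusted p = 0.018, and 0.063 without control 3 or 0.056 without rEC 3). Of 12 chemokines 3 fell, which were Ccl3, Cxcl12 and Ccl6 (36.2, 46.1 and 11.4 FPKM against 0.545, 4.94 and 0.797 FPKM, adjusted p = 0.021, and 0.054 to 0.11 without control 1, control 2 or rEC 1).

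The stress lists moved little with all libraries. Among 26 unfolded protein and integrated stress response genes, Atf4, a transcription factor common to both responses, fell by 0.75 ± 0.17 (SE, limma adjusted p = 0.026), at 374, 441 and 353 FPKM against 274, 244 and 183 FPKM. That call ended without control 1 (0.074), control 2 (0.14) or rEC 3 (0.070). Herpud1, of endoplasmic reticulum degradation, fell by 0.98 ± 0.20 (adjusted p = 0.012), at 93.6, 96 and 107 FPKM against 72.3, 35.0 and 48.3 FPKM. Without rEC 2, 11 of the 26 fell, beside 5.69% of all genes tested. Heat shock genes gave 0 calls of 16. The chaperone Hspa8 was highest in rEC 2, at 2203 FPKM against 656 to 913 FPKM elsewhere. Of the 14 survival genes tested, Pmaip1, which encodes the death promoter Noxa, was the only 1 to fall (4.81, 6.004 and 3.71 FPKM against 1.38, 0.0674 and 0.244 FPKM, adjusted p = 0.0014), while Mcl1 measured 338, 350.3 and 300.4 FPKM against 325, 61.4 and 336 FPKM.

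Interferon response genes lay on both sides of the controls. Of 32, 21 were above every control in rEC 3, 17 were in rEC 1, and 30 were below every control in rEC 2. The shares over all genes were 39.6%, 24.8% and 49.2%. Igtp, an immunity GTPase, measured 24.4, 18.5 and 30.2 FPKM in the controls and 63.3, 6.86 and 77.0 FPKM in the rEC libraries. Limma called 0 of 32 with all libraries and 5 higher without rEC 2, among them Gbp3, Igtp, Irgm1 and Rtp4. Of all genes tested 3.24% were called higher without rEC 2. Igtp then rose by 1.51 (adjusted p = 0.016). Of 14 class I antigen presentation genes tested 0 passed, and without rEC 2 H2-T23 rose by 0.70 (adjusted p = 0.0015) and Tapbp by 0.36 (0.025). The H2 genes are near-identical copies, so reads could be divided between them.

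Endothelial genes were checked because the derived cells descend from endothelium. The markers Cdh5, Kdr and Stab2 were at 4.07 FPKM or less in every library, and Emcn, fixed as a marker with them, is not reported here. Other genes of the list were higher, such as Egfl7 at 75.4 to 104 FPKM and Eng at 42.9 to 107 FPKM across the libraries. Cdh5, VE-cadherin, measured 2.16, 0.421 and 1.04 FPKM in the controls and 0.102, 0.277 and 0.305 FPKM in the rEC libraries (limma adjusted p = 0.055). Of 18 tested 0 passed with all libraries, and without rEC 2, 2 rose and 2 fell, among the latter Cdh5 (by 0.80, adjusted p = 0.021). Cdh5 also passed with the label as a term (0.040). Some genes that stem cells share with endothelium were highest in rEC 3, among them Cldn5, a junction protein, at 81.7, 93.6 and 5.73 FPKM against 39, 0 and 255 FPKM, and Ramp2, a receptor partner, at 14, 12.8 and 8.89 FPKM against 20.6, 0.327 and 67.4 FPKM. Ramp2 rose by 1.60 without rEC 2 (adjusted p = 0.0014). The list summed to 495, 459 and 344 FPKM in the controls and 475, 162 and 824 FPKM in the rEC libraries.

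General metabolism showed no call with all libraries. This covers 21 genes of glycolysis, 21 of cholesterol synthesis, 17 of DNA methylation and chromatin, 83 of cytosolic ribosomal proteins and 75 of oxidative phosphorylation, and limma calls over all tested genes were 1.32%. In rEC 2, 71 of the 75 oxidative phosphorylation genes were above every control, and in rEC 3, 62 were below every control, beside 33.9% and 27.6% of all genes. Without rEC 2, 3 of the 75 fell, and 1 cholesterol gene rose. The oxidative phosphorylation genes summed to 11949, 12782 and 9971 FPKM in the controls and 10286, 21841 and 7796 FPKM in the rEC libraries. Dnmt1, the maintenance DNA methyltransferase, measured 71.6, 64.4 and 55.4 FPKM against 38.6, 102 and 28 FPKM. It was highest in rEC 2 and lowest in rEC 3, and fell by 0.93 without rEC 2 (adjusted p = 0.00078). Pkm, the pyruvate kinase of most tissues, measured 411, 375 and 379.9 FPKM against 437, 88.0 and 387 FPKM.

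The 2 labels allow the origins to be compared within a label, with no test. Of the 176 lower calls, rEC 1 was below control 3 for 164, by at least 1 on the log2 scale for 96. For all 10 higher calls rEC 1 was above control 3. Both libraries entered the fit that made the calls. For 148 of the 176 and 9 of the 10 the origins did not overlap, which fixes that order. The counts are thus no separate support for the calls. Over all genes tested the median of this difference was 0.04, and the median of rEC 2 and 3 minus control 1 and 2 was -0.10. Retnlg differed by -4.95 between rEC 1 and control 3 and by -7.24 between the other libraries, and Mpo by -3.04 and -6.43. Prss34 differed by -0.87 and -7.51, and Cxcl12 by 0.32 and -4.79. The list medians of these 2 differences were -0.17 and -5.28 for eosinophil genes and -0.25 and -2.64 for mast cell and basophil genes. They were -1.11 and -3.18 for primary granule genes and -1.20 and -1.28 for antibody-secreting cell genes. Control 3 was the lowest control for 114 of the 176 lower calls. Among the rEC libraries, the lowest was rEC 3 for 74 of them and rEC 2 for 64, and the highest was rEC 1 for 92.

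**Figure D5:**
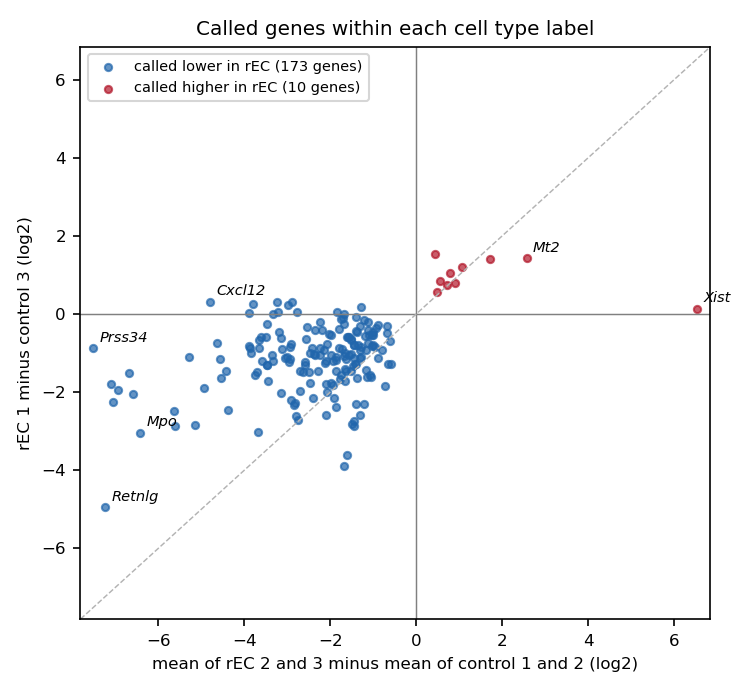
Difference between origins within each cell type label for the 183 called genes that belong to the 12858, as the log2 difference of rEC 1 and control 3 (vertical) against that of rEC 2 and 3 and control 1 and 2 (horizontal), with the dashed line marking equal values. Retnlg is the lowest point on the vertical axis, at -4.95, Prss34 the lowest on the horizontal axis, at -7.51, and Cxcl12 is at 0.32 on the vertical axis.

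The origin difference in LKS-SLAM cells was also set against the mean origin difference in the 4 blood cell types. It differed for 80 of 14083 genes (0.568%), 78 of them more negative in LKS-SLAM cells, and 1055 genes had an unadjusted p under 0.05. Retnlg had an origin difference of 0.06 in blood and the LKS-SLAM difference was lower by a log2 value of -6.54 (limma adjusted p = 5.1e-07). Mpo had 0.10 in blood (difference of differences -5.40, adjusted p = 0.0062) and Elane -0.08 (-4.62, adjusted p = 0.0096). Mt2 had 0.15 in blood, and its difference of differences of 2.05 did not pass (adjusted p = 0.17). Jchain was lower in derived blood cells too, at -2.35, and its difference of differences did not pass (-2.73, adjusted p = 0.56). Mature blood cells other than myeloid cells express few granule genes, which limits what the blood side can show.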

How the data were processed

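FPKM values per gene were deposited by the authors as a single table of 23060 gene symbols in 30 libraries. Per the labels' protocols, poly-A selected RNA was made into non-stranded libraries and sequenced as paired ends. Cufflinks 2.2.1, TopHat2 2.1.0, Trimmomatic 0.36 and FastQC 0.11.5 appear in the submitters' processing notes, with bcl2fastq 2.17 and the build mm10, and their order and settings are not given in the sources used here. FPKM keep no counts, so absolute depth is unknown and reads of near-identical copies or antisense partners may have been divided between genes.

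Genes at 1 FPKM in at least 2 of 29 grouped libraries were tested on log2(FPKM + 1), so that fold changes of low genes are understated. The fit used limma 3.58.1 in R 4.3.3, with 11 groups, 18 residual degrees of freedom and Benjamini-Hochberg adjustment over 14083 genes at 0.05. All differences, their SE and their adjusted p-values come from it unless another fit is named, and each mean has n = 3. The SE thus rests on the spread pooled over 11 groups, not on that of the LKS-SLAM libraries alone. The library whose group the labels do not give was left out. Distances, list summaries and figures were made in Python 3.11.15 with numpy 2.4.6, pandas 2.3.3 and matplotlib 3.10.9. The code was tested on simulated data.

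The genes, the 34 lists and the tests were chosen with earlier results of these data known. Named were the 10 largest rises and 16 largest falls among called genes with no overlap and a mean of 5 FPKM in the higher group (4 rises qualified), up to 6 members of each list with called ones first, sort markers, conversion factors, the metallothionein pair and the genes that set a library apart. List members named beyond this rule, and Xist, Ddx3y and Eif2s3y, were chosen after their values were seen. The list symbols Ly6g, Hbb-bt and Cavin2 were not analysed here, and a few named genes are not reported here. Gene positions come from GENCODE on mm10, matched by symbol for 21993 genes, and promoters from RefSeq on GRCm38.p6. Alternatives changed the pseudocount (0.1, 0.5), the filter (none, 5 FPKM), the scaling, the libraries in the fit, the weights and the label term.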

Additional observations from a re-analysis of the deposited data

Results flagged for a closer look

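The origin difference in LKS-SLAM cells stood apart from the mean origin difference in 4 blood cell types, by a limma test of the difference itself with Benjamini-Hochberg adjustment, for 80 genes. Among the genes with the largest falls, Retnlg differed by -6.54 on the log2 scale (adjusted p = 5.1e-07), Mcpt8 by -5.50 (0.0076), Mpo by -5.40 (0.0062), Elane by -4.62 (0.0096) and Ctsg by -4.52 (0.0098). The values were -4.51 for Lcn2 (adjusted p = 0.014), -3.51 for Hp (0.0046), -3.51 for Alox15 (0.031) and -3.48 for Mgp. In blood the origin differences were 0.13 for Lcn2, -0.41 for Hp, -0.38 for Alox15 and 0.21 for Mcpt8. All 9 genes had all 3 rEC LKS-SLAM libraries under all 3 controls, as the naming rule required. They were named for a large fall in LKS-SLAM cells, which is also a term of this difference, so their sizes are no separate support.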

How the results depend on the processing

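No paired analysis was possible because the LKS-SLAM titles of the rEC libraries share fewer than 2 replicate numbers with those of the controls. The count of 186 was 329 without a filter, 0 with the 6 libraries alone, 3 with LKS-SLAM and FGRS libraries, 1219 with quality weights, 336 with a label term and 1557 without rEC 2 and B220+ rEC 1. It ran from 113 to 1258 on leaving out 1 library, and from 126 to 202 under the other alternatives. The comparison with blood, 80 genes, gave 155, 1011, 158 and 999 under no filter, weights, the label term and the loss of both libraries, 46 with a filter of 5 FPKM, 45 after quantile normalisation, and 42 to 817 on leaving out 1 library. Of 57 named calls, 29 (without control 1) to 53 (without rEC 2) passed on leaving out 1 library, and 39 with a pseudocount of 0.1.

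Mean distance within controls was 0.0743 with a pseudocount of 0.1 and 0.0166 to 0.0618 on leaving out 1 library. Within rEC libraries it was 0.0553 to 0.255, and between origins 0.0594 without a filter. Signs turned without rEC 2 for Ly6a (0.96, and -1.31 without rEC 3), Irgm1 (0.42, -0.36), H2-T23 (0.70, -0.77) and Atp5b (-0.43, 0.50), with the same values when B220+ rEC 1 was dropped too. The signs of Txnip (0.91), Selp (1.24), Hspe1 (-0.63) and H2-Q4 (0.53) also turned without rEC 2. These are not all such genes, as Kit went from -0.28 to 0.06 and Gata2 from -0.34 to 0.50. H2-T23 also turned with quality weights (0.74). Between rEC 1 and control 3 the signs of Siglecf (0.32), Cxcl12 (0.32), Serping1 (0.31), Igfbp5 (0.052) and Egr3 (0.27) turned. The causes were not tested. With 3 libraries a group and no counts, small differences of low genes were not detectable.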

Other observations

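Gene families outside the lists, chosen after their values were seen, gave further calls. Of 47 clustered histone genes tested, 12 fell and 0 rose, beside 1.25% of all genes tested that fell. The 68 in the table summed to 482, 658 and 448 FPKM in the controls and 280, 255 and 204 FPKM in the rEC libraries. Hist1h4m, a copy of histone H4, measured 3.25, 4.08 and 5.65 FPKM against 0, 0.796 and 0.626 FPKM (log2 difference -1.87 ± 0.25, SE, limma adjusted p = 0.00021). Most histone messages lack a poly-A tail, and near-identical copies can share reads.

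Subunits of the phagocyte oxidase, the enzyme that makes superoxide, were among them. Ncf1 measured 41.5, 38.6 and 36.1 FPKM against 19, 4.802 and 2.83 FPKM, and Ncf4 measured 23.6, 20.1 and 26.6 FPKM against 9.13, 4.17 and 1.33 FPKM. Ncf1 fell by 2.38 ± 0.42 (SE, limma adjusted p = 0.0035), Ncf4 fell by 2.29 ± 0.37 (0.0014) and Cybb fell by 2.24 ± 0.43 (0.0069). Cyba and Rac2, which are used more widely, did not pass. Of the Id genes, inhibitors of basic helix-loop-helix factors, Id1, Id3 and Id4 fell and Id2 did not pass. Id1 measured 102, 85.7 and 13.1 FPKM against 13.4, 1.42 and 15.7 FPKM, so control 3 was in the rEC range. The call of Id1 ended without control 1 (0.24), control 2 (0.20) or rEC 2 (0.063), and that of Id3 without control 1 (0.072) or control 2 (0.067).

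Nr1h3, the sterol receptor LXR alpha, measured 1.39, 1.39 and 0.635 FPKM in the controls and 2.74, 4.57 and 3.44 FPKM in the rEC libraries and rose by 1.10 ± 0.23 (SE, limma adjusted p = 0.012). Single libraries also stood apart. In rEC 2 the scavenger genes Fcna and Cd5l were at 82.1 and 24.4 FPKM. In rEC 3 Klrb1c, Slc17a8 and Jam2 were at 92.2, 50.4 and 42.3 FPKM and Tyrobp at 0.937 FPKM. In rEC 1 Rps27 was at 622 FPKM, against 17.5 to 39.2 FPKM in the other libraries. None of these 7 genes passed the origin test.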
